A study of Mus musculus with 8 samples.

Results

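The interferon regulatory factor genes of the mouse were examined in donor T cells on day 6 after hematopoietic cell transplantation (HCT). The 8 rows of the deposited expression tables named Irf1, Irf2, Irf3, Irf4, Irf5, Irf7, Irf8 and Irf9 were taken by gene name, out of 25078 gene rows, and all 8 passed the filter on low counts. Lethally irradiated BALB/c recipients had been given T cell-depleted bone marrow together with T cells of C57BL/6 donors, which were either wild type (WT) or Stat3 fl/fl CD4-Cre (STAT3KO). In the latter, a Cre recombinase under Cd4 regulatory sequences deletes a floxed part of Stat3 in the T cell lineage, so both CD4+ and CD8+ T cells are affected, while the recipients were WT in every group. Donor T cells carrying H-2Kb and TCRβ were sorted from the spleen as CD4+ or CD8+ cells, and messenger RNA was sequenced from 2 libraries each of CD4 WT, CD4 STAT3KO, CD8 WT and CD8 STAT3KO T cells. By the study's methods, each library pooled cells of 3 recipients, so the p-values below measure the spread between pools and not between animals. In such bulk samples, fewer cells that express a gene and less of its RNA per cell cannot be told apart.

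Interferon regulatory factors (IRFs) are transcription factors that share an amino-terminal DNA-binding domain, which recognizes GAAA repeats in interferon-stimulated response elements (ISREs). IRF9 is the DNA-binding subunit of ISGF3, the complex that carries the signal of type I interferons to the nucleus, and IRF3, IRF5 and IRF7 are activated by kinases downstream of nucleic acid sensors. IRF1 is induced by interferon gamma and is opposed at many sites by IRF2, whereas IRF4 and IRF8 act in lymphoid and myeloid cells with partners such as BATF-JUN and PU.1, and IRF4 in T cells is induced by antigen receptor signaling.

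The sequence upstream of each start site was searched for 3 motifs: the palindromic gamma-activated site bound by STAT dimers (GAS, TTCNNNGAA), the ISRE core (a pair of GAAA repeats with any 2 bases between them) and the AP-1 site of JUN and BATF dimers (TGANTCA). All 8 genes were matched in the RefSeq promoter table (build GRCm38.p6), and the 250 bases before the start site nearest to the deposited gene start were read on both strands. GAS letters were present upstream of Irf1, Irf2 and Irf8, whereas 7.02% of 32851 promoters in the table held one. ISRE letters were present upstream of Irf2 only, against 2.98% of all promoters. AP-1 letters, found in 6.75% of promoters, occurred in none of the 8 windows, and those of Irf3, Irf4, Irf5, Irf7 and Irf9 held no match to any of the motifs. The stretches that hold the matches are shown because these are the members whose upstream sequence carries the letters of a STAT site. They lie on the plus strand at chr11:53769904-53769952 (Irf1), chr8:46739495-46739549 (Irf2) and chr8:120736167-120736233 (Irf8), in the noncoding sequence before each gene, and capitals mark the motif letters (in Irf2, the ISRE first and the GAS second).
Irf1: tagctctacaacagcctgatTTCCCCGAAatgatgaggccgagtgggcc
Irf2: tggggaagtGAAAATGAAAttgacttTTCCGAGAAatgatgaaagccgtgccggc
Irf8: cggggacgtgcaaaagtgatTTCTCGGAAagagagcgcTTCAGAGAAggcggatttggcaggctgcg

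The single site of Irf1 lies 90 to 82 bases before the start, that of Irf2 lies 224 to 216 bases before it, and the 2 sites of Irf8 lie 171 to 163 and 153 to 145 bases before it. The windows of these 3 genes were rich in G and C, with 71.2% (Irf1), 65.2% (Irf2) and 67.2% (Irf8), against a median of 52.4% over all promoters. The windows without a match had 72% (Irf5), 63.6% (Irf4), 58.8% (Irf3) and 54.4% (Irf7 and Irf9 each), also above that median. The window richest in G and C, that of Irf5, thus held none of the motifs. A match to these letters is a description of the sequence and was not tied to binding in these data.

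The libraries held between 20171396 and 23282757 counts. Stat3, the targeted gene, had 428 to 436 CPM (counts relative to the TMM-adjusted library total) in the 4 WT libraries and 120 to 143 CPM in the 4 STAT3KO libraries, so the labels and the data went together. Cd4 lay between 1361 and 1602 CPM in CD4 and at most at 8.16 CPM in CD8 libraries, and the summed level of 7 T cell genes was between 4553 and 5405 CPM by column total throughout. Of 11 genes of macrophages and monocytes, 9 were higher in the library numbered 2 than in that numbered 1 in all 4 groups, and Itgam and Cd68, the most abundant of them in CD8 T cells, were not. Among the former, C1qa, a complement gene of macrophages, had 1.03 to 3.05 CPM in the libraries numbered 1 and 13.7 to 22.9 CPM in those numbered 2.

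Levels of the members were compared with each other on the deposited RPKM scale, which is per exon length. Irf1 was the most abundant member in every group, with a mean of 113 RPKM in CD4 WT, 166 in CD4 STAT3KO, 111 in CD8 WT and 129 in CD8 STAT3KO T cells. In no group did its 2 libraries overlap those of the next gene. Irf5 was the least abundant in every group, with means of 9.55, 11.2, 8.09 and 7.39 RPKM in the same order, again with no overlap. Between these ends the order was less distinct. In CD4 WT T cells, Irf4 (49.0 RPKM), Irf9 (45.0), Irf2 (44.5), Irf7 (36.2) and Irf3 (34.5) each overlapped the next. In CD4 STAT3KO T cells, Irf9 (67.0 RPKM), Irf2 (61.5) and Irf4 (59.3) overlapped one after the other and lay above Irf7 (46.0), which lay above Irf3 (36.6). Irf8 came second to last in 3 groups, with 15.3 RPKM in CD4 WT, 17.7 in CD4 STAT3KO and 22.0 in CD8 STAT3KO T cells. In CD8 WT T cells it reached 30.4 RPKM and lay within the overlapping series of Irf9 (35.5), Irf3 (28.0) and Irf7 (27.9), below Irf2 (47.4) and Irf4 (46.8), which overlapped each other. In CD8 STAT3KO T cells, Irf2 (62.0), Irf4 (51.9) and Irf9 (49.7) overlapped one after the other, and Irf7 (36.1) overlapped Irf3 (31.6).

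**Figure D1:**
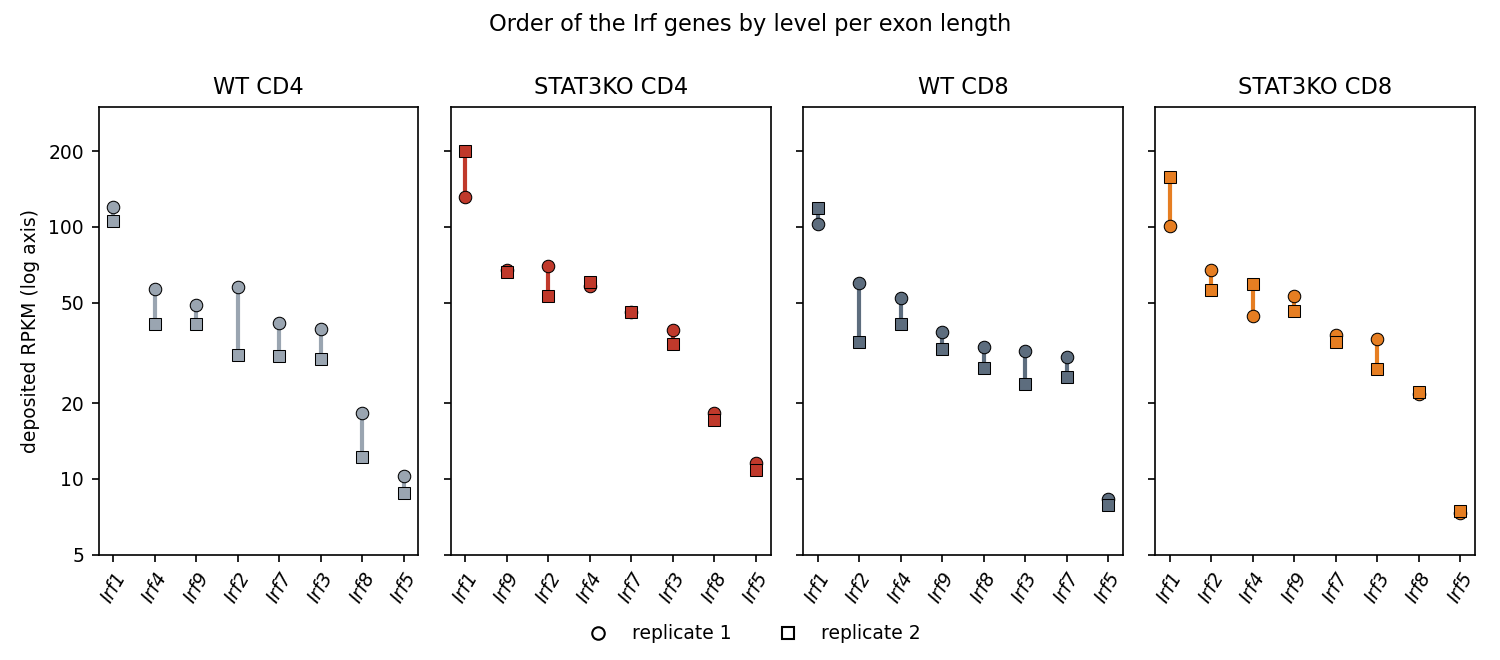
Deposited RPKM values (log axis) of the 8 Irf genes in CD4 WT, CD4 STAT3KO, CD8 WT and CD8 STAT3KO T cells, with genes ordered by their mean within each group, circles and squares for replicates 1 and 2, and a line joining both. Irf1 stands at the left end and Irf5 at the right end of every panel, and Irf8 moves from seventh place to the fifth in CD8 WT T cells.

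The plot of RPKM by rank shows that the ends of the order were the same in all groups and that the middle was a series of overlapping ranges. Summed over the 8 members, the RPKM values were 393 and 301 in CD4 WT, 442 and 489 in CD4 STAT3KO, 358 and 313 in CD8 WT and 369 and 411 in CD8 STAT3KO libraries. The STAT3KO libraries lay above the WT libraries of the same cell type without overlap. Irf1 alone made up 27.4% to 41.1% of this sum.

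The comparison of STAT3KO with WT is one of donor genotypes, here within the IRF family. The paper describes the recipients of WT T cells as having graft-versus-host disease (GVHD) and those of STAT3KO T cells as not having it. The loss of STAT3 in the T cells and the state of the recipient therefore cannot be told apart in these comparisons. In CD4 T cells, 1 of the 8 members passed the edgeR quasi-likelihood test (adjusted p under 0.05 over all genes tested): Irf9 rose. Of all 12428 genes tested, 11.6% were called in this comparison, 6.54% higher and 5.08% lower, so a share of 1 in 8 is close to the background. All 8 log2 fold changes were above 0, between 0.11 (Irf3) and 0.60 (Irf9), with a median of 0.34 against 0.02 over all genes. Among all genes, 52.1% had a log2 fold change above 0. Between the CD4 libraries numbered 1, STAT3KO minus WT lay between -0.005 (Irf3) and 0.48 (Irf9) on the log2 scale. Between those numbered 2 it lay between 0.25 (Irf3) and 0.97 (Irf1). CD4 WT replicate 2 lay below CD4 WT replicate 1 for every member. For 5 members, namely Irf1, Irf4, Irf5, Irf7 and Irf9, both STAT3KO libraries lay above both WT libraries, and the groups of the other 3 overlapped. Among all genes, 53.5% did not overlap in either direction and 28.5% lay higher in STAT3KO without overlap.

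Among CD8 T cells, 0 of the 8 members passed the edgeR test, where 2.07% of all genes were called (1.34% higher and 0.732% lower). At an unadjusted p under 0.05, there were 3 members (Irf7, Irf8 and Irf9) and 2400 of all 12428 genes, and DESeq2 called 1 member (Irf9) and 885 genes. The log2 fold changes were above 0 for 6 members and below 0 for Irf5 and Irf8, with a median of 0.21 against -0.01 over all genes. Among all genes, 49.1% had a log2 fold change above 0. Irf7 and Irf9 lay higher in STAT3KO without overlap (24.9% of all genes did so), and Irf5 and Irf8 lay lower without overlap (24.8% of all genes, with 49.7% in either direction).

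**Figure D2:**
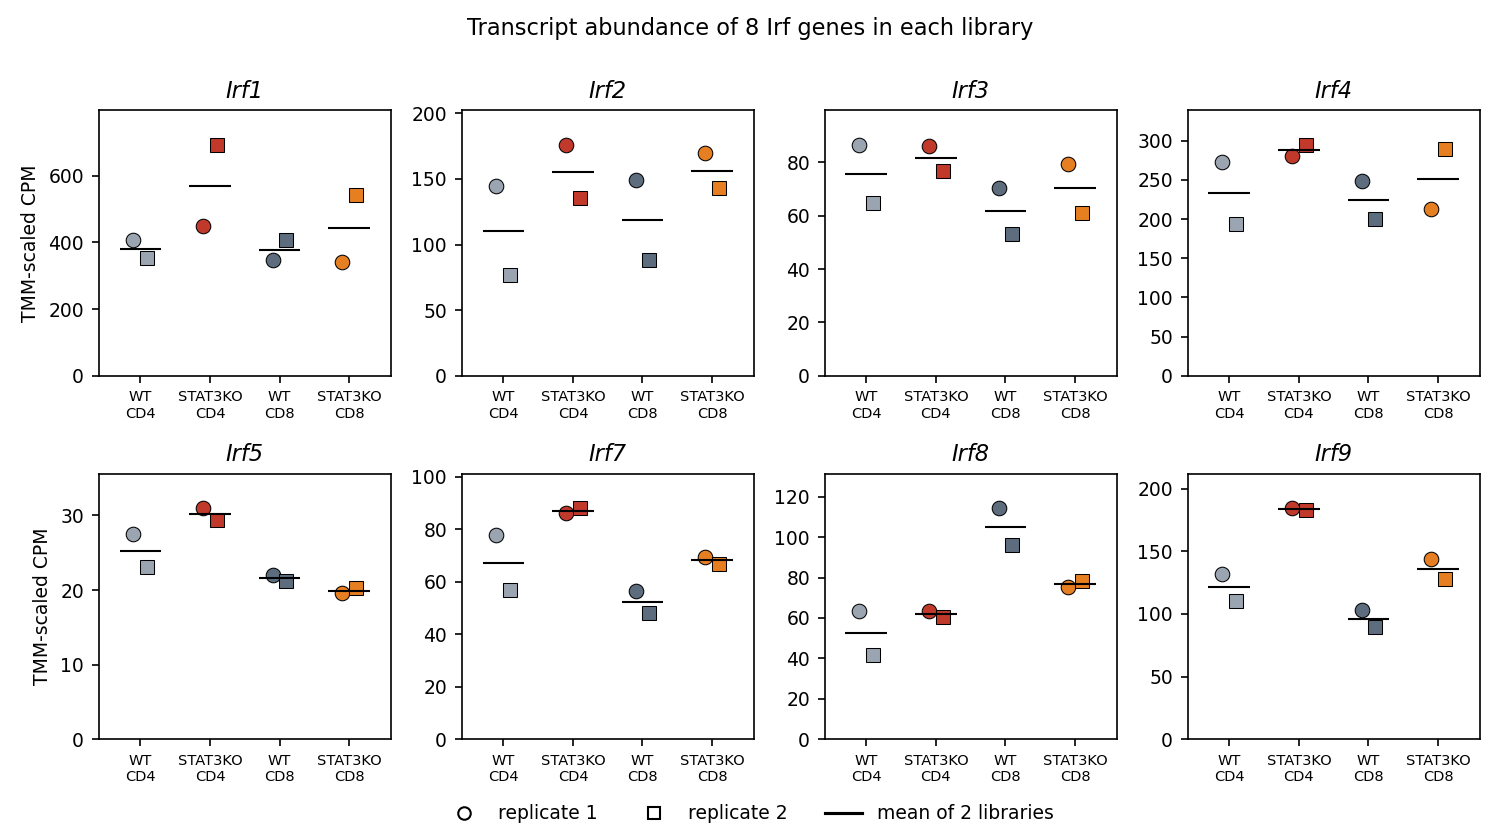
TMM-scaled CPM (vertical axes, each from 0) of the 8 Irf genes in every library, with circles for replicate 1, squares for replicate 2 and a bar at the mean of both. Irf9 lies higher in STAT3KO than in WT libraries of either cell type, and Irf8 is highest in the CD8 WT libraries (114 and 96.0 CPM).

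**Figure D3:**
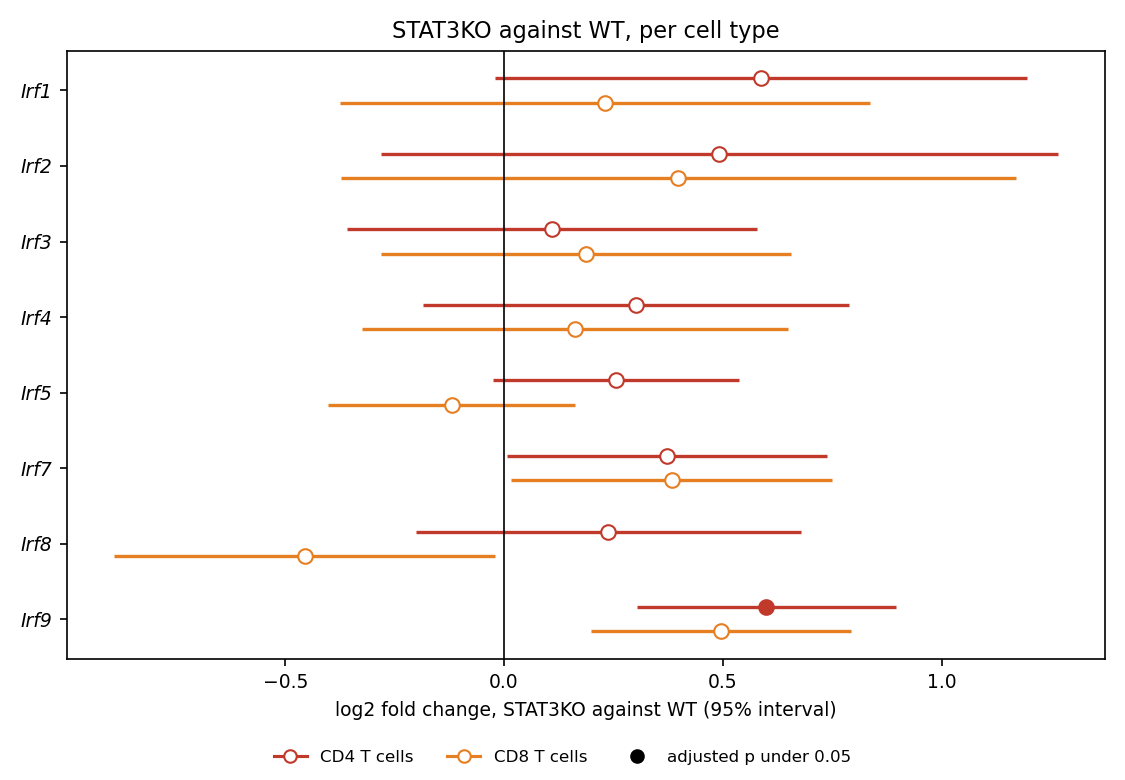
Log2 fold changes of STAT3KO against WT (horizontal axis, with 95% intervals from the edgeR fit) for the 8 Irf genes in CD4 (red) and CD8 (orange) T cells. The filled point, Irf9 in CD4 T cells at 0.60, is the one called at an adjusted p under 0.05. Irf5 and Irf8 each lie on opposite sides of 0 in the 2 cell types.

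Irf9, the DNA-binding subunit of ISGF3 (chr14:55603985-55610030, plus strand, protein coding), had 132 and 110 CPM in CD4 WT and 184 and 183 CPM in CD4 STAT3KO libraries. Both CD4 STAT3KO libraries lay above every other library of the series. The mean rose 1.52-fold (log2 fold change 0.60 ± 0.13 SE, adjusted p 0.0234 in edgeR). This call was lost without CD4 WT replicate 2 (log2 fold change 0.47, edgeR adjusted p 0.119), without CD4 STAT3KO replicate 1 (0.59, adjusted p 0.118) and without CD4 STAT3KO replicate 2 (0.61, adjusted p 0.1102).

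Its CD8 levels were 103 and 89.3 CPM in WT and 144 and 128 CPM in STAT3KO libraries. The groups did not overlap, and the ratio of 1.41 (log2 fold change 0.50 ± 0.13 SE, adjusted p 0.0931 in edgeR) missed the threshold. With the replicate number as a block it passed (0.50, edgeR adjusted p 0.00374), and it also passed in DESeq2 (adjusted p 0.0179). Between libraries of the same number, STAT3KO minus WT was 0.48 and 0.73 on the log2 scale in CD4 and 0.48 and 0.52 in CD8 T cells. All 4 of these differences were of one sign.

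Stat2, which encodes a partner of IRF9 in ISGF3, had 65.3 and 54.2 CPM in CD4 WT, 75.4 and 66.2 CPM in CD4 STAT3KO, 50.96 and 47.88 CPM in CD8 WT and 55.4 and 49.8 CPM in CD8 STAT3KO libraries. It was not called in either cell type (log2 fold changes 0.25 and 0.09, edgeR adjusted p 0.272 and 0.783), except in CD4 T cells with the replicate block (0.25, adjusted p 0.0472).

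The genes most like Irf9 over the 8 libraries, by the root mean square difference of log2 CPM after each gene was centred on its mean, were Rps6ka5 (0.08), Atg16l2 (0.09) and Ppp1r12a (0.10), out of 8750 genes compared. Rps6ka5, which encodes the kinase MSK1, had 23.2 ± 2.26 CPM in CD4 WT, 40.2 ± 3.31 in CD4 STAT3KO, 20.3 ± 2.12 in CD8 WT and 27.6 ± 2.62 in CD8 STAT3KO T cells (SD, n = 2). Like Irf9, it was highest in CD4 STAT3KO and lowest in CD8 WT T cells.

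Irf7, the factor that amplifies type I interferon production and is itself interferon-induced (chr7:141263183-141266424, minus strand), had 77.7 and 56.8 CPM in CD4 WT and 86.2 and 88.0 CPM in CD4 STAT3KO libraries. The CD8 libraries had 56.6 and 48.0 CPM in WT and 69.5 and 66.8 CPM in STAT3KO libraries. STAT3KO lay above WT without overlap in both cell types, by nearly the same log2 fold change (0.37 ± 0.16 SE, adjusted p 0.176 in edgeR in CD4; 0.38 ± 0.16 SE, adjusted p 0.240 in CD8), and neither passed. Both passed with the replicate block (0.39, edgeR adjusted p 0.0257 in CD4 and 0.39, adjusted p 0.0385 in CD8). Without CD4 WT replicate 1, Irf7 was also called in CD4 T cells.

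Irf3, which is present before stimulation and is activated by phosphorylation (chr7:44997648-45002848, plus strand), had 86.5 and 64.7 CPM in CD4 WT and 86.2 and 76.9 CPM in CD4 STAT3KO libraries. The groups overlapped (log2 fold change 0.11, 95% interval -0.36 to 0.58). Levels in CD8 T cells were 70.3 and 53.0 CPM in WT and 79.4 and 61.0 CPM in STAT3KO libraries, which overlapped too (0.19, 95% interval -0.28 to 0.66). These intervals leave room for changes of either sign.

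Irf5, a factor of inflammatory cytokine genes that is best known from macrophages and B cells (chr6:29526625-29541869, plus strand), had 27.5 and 23.1 CPM in CD4 WT and 31.0 and 29.4 CPM in CD4 STAT3KO libraries. The CD8 libraries had 22.0 and 21.2 CPM in WT and 19.5 and 20.2 CPM in STAT3KO libraries. It thus lay higher in STAT3KO in CD4 and lower in STAT3KO in CD8 T cells, each without overlap, and neither difference passed (log2 fold changes 0.26 and -0.12, edgeR adjusted p 0.220 and 0.665). Of its annotated exon bases, 14.1% lie under exons of Tnpo3 on the opposite strand, and whether strand was used in counting is not stated. Tnpo3 itself had 145 ± 10.5 CPM in CD4 WT, 152 ± 5.18 in CD4 STAT3KO, 164 ± 1.25 in CD8 WT and 169 ± 5.80 in CD8 STAT3KO T cells (SD, n = 2).

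Irf1, the interferon gamma-induced activator (chr11:53770014-53778374, plus strand), had 407 and 353 CPM in CD4 WT and 449 and 692 CPM in CD4 STAT3KO libraries. The CD8 libraries had 347 and 407 CPM in WT and 343 and 541 CPM in STAT3KO libraries. The STAT3KO libraries numbered 2 were the highest of the series, and those numbered 1 were close to the WT libraries. The CD4 difference was about as large as that of Irf9 and less certain (log2 fold change 0.59 ± 0.26 SE, adjusted p 0.196 in edgeR), and it passed only with the replicate block (0.54, adjusted p 0.0388). Between libraries of the same number it was 0.14 and 0.97 on the log2 scale in CD4 and -0.02 and 0.41 in CD8 T cells. The CD8 difference was not called (0.23 ± 0.26 SE, adjusted p 0.704 in edgeR).

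Irf2, the antagonist of IRF1 at many shared sites (chr8:46739745-46847458, plus strand), had 145 and 76.5 CPM in CD4 WT and 176 and 135 CPM in CD4 STAT3KO libraries. The CD8 libraries had 149 and 88.3 CPM in WT and 169 and 143 CPM in STAT3KO libraries. In each group the library numbered 2 was the lower, and the groups overlapped in both cell types. The log2 fold changes of 0.49 (SE 0.33, edgeR adjusted p 0.397) in CD4 and 0.40 (SE 0.33, adjusted p 0.585) in CD8 T cells were not called, while the CD4 one passed with the replicate block (0.54, adjusted p 0.0162).

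Irf4, which scales effector differentiation of T cells with receptor signal strength (chr13:30749233-30766981, plus strand), had 273 and 194 CPM in CD4 WT and 281 and 295 CPM in CD4 STAT3KO libraries. The CD8 libraries had 249 and 200.1 CPM in WT and 213 and 290 CPM in STAT3KO libraries. The CD4 groups did not overlap and the CD8 groups did. Neither difference passed (log2 fold change 0.30 ± 0.21 SE, adjusted p 0.410 in edgeR in CD4; 0.16 ± 0.21 SE, adjusted p 0.747 in CD8). Batf, the AP-1 partner with which IRF4 binds composite sites in T cells, had 254 and 292 CPM in CD4 WT and 186 and 180 CPM in CD4 STAT3KO libraries. It fell there (log2 fold change -0.58 ± 0.13 SE, adjusted p 0.0266 in edgeR). This call was lost without CD4 WT replicate 2 (log2 fold change -0.48), without CD4 STAT3KO replicate 1 (-0.60) and without CD4 STAT3KO replicate 2 (-0.56). Batf in CD8 T cells had 175 and 178 CPM in WT and 140 and 114 CPM in STAT3KO libraries (-0.47, edgeR adjusted p 0.102), which passed with the replicate block (-0.47, adjusted p 0.0141).

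Irf8 differed from the other members in its pattern over the groups. This factor, best known as a determinant of dendritic cells and monocytes and also induced in activated CD8+ T cells (chr8:120736358-120756692, plus strand), had 63.5 and 41.7 CPM in CD4 WT, 63.5 and 60.5 CPM in CD4 STAT3KO, 114 and 96.0 CPM in CD8 WT and 75.3 and 78.0 CPM in CD8 STAT3KO libraries. Both CD8 WT libraries lay above every other library. In CD8 T cells the STAT3KO mean was 0.729 times that of WT (log2 fold change -0.46, 95% interval -0.89 to -0.02, edgeR adjusted p 0.239), which passed with the replicate block (-0.45, adjusted p 0.0399). In CD4 T cells the groups overlapped (0.24, 95% interval -0.20 to 0.68, adjusted p 0.479).

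Whether the STAT3KO effect differed between CD8 and CD4 T cells was tested as an interaction, and edgeR called 0 genes and 0 members (0% of genes tested). At an unadjusted p under 0.05 there were 982 genes, among them 1 member, and DESeq2 called 188 genes and 0 members. That member was Irf8, whose log2 fold change was lower in CD8 than in CD4 T cells by a difference of -0.69 (95% interval -1.31 to -0.07, edgeR unadjusted p 0.0326, adjusted p 0.559, and 0.0790 adjusted with the replicate block). For Irf5 the difference was -0.38 (95% interval -0.77 to 0.02, edgeR adjusted p 0.663), and for Irf9 it was -0.10 (-0.52 to 0.31, adjusted p 0.999). A difference of the STAT3KO effect between the cell types is therefore not shown for any member.

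CD8 and CD4 T cells were then compared within each genotype, in comparisons that use the same libraries as those above. In WT T cells, 1 of 8 members was called, where 23.8% of all genes were called (12.2% higher in CD8). Irf8 was the member, and it lay higher without overlap (29.2% of all genes did so), with 2.00 times the CD4 level in CD8 T cells (log2 fold change 1.00 ± 0.19 SE, adjusted p 0.00780 in edgeR). It was called under all 16 alternatives tried. Between libraries of the same number, CD8 minus CD4 for Irf8 was 0.85 and 1.20 on the log2 scale in WT and 0.24 and 0.37 in STAT3KO T cells. Irf5, Irf7 and Irf9 lay lower in CD8 WT than in CD4 WT libraries without overlap (30.0% of all genes did so), with log2 fold changes of -0.23, -0.36 and -0.33 (edgeR adjusted p 0.224, 0.142 and 0.103). With the replicate block, Irf3 (-0.29, adjusted p 0.0226), Irf7 (-0.36, adjusted p 0.0272) and Irf9 (-0.33, adjusted p 0.00907) passed as well. Without CD4 WT replicate 2, Irf7 was called beside Irf8.

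In STAT3KO T cells, 1 of 8 members was called between CD8 and CD4, where 12.5% of all genes were called (6.67% lower and 5.84% higher in CD8). Irf5 fell from 31.0 and 29.4 CPM in CD4 to 19.5 and 20.2 CPM in CD8 libraries, to 0.659 times the CD4 level (log2 fold change -0.60 ± 0.12 SE, adjusted p 0.0184 in edgeR). The call was lost without any 1 of the 4 STAT3KO libraries, when 0 members were called. Irf5, Irf7 and Irf9 lay lower in CD8 without overlap (28.7% of all genes did so, and 58.3% did not overlap in either direction). Irf9 was not called (-0.44 ± 0.13 SE, adjusted p 0.0653 in edgeR), but passed with the replicate block (-0.44, adjusted p 0.00271), as did Irf7 (-0.36, adjusted p 0.0354, against 0.196 without the block). Irf8 lay higher in CD8 without overlap, as did 29.6% of all genes, and was not called (0.31, 95% interval -0.13 to 0.74, edgeR adjusted p 0.350).

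**Figure D4:**
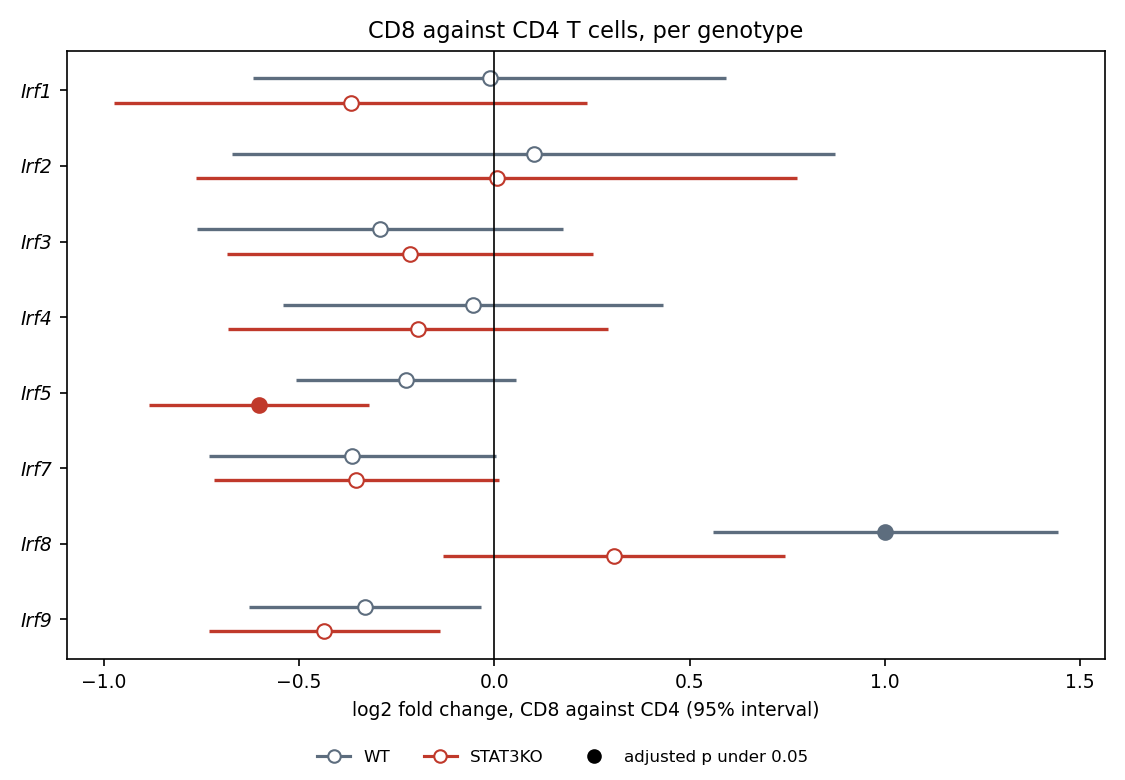
Log2 fold changes of CD8 against CD4 T cells (horizontal axis, with 95% intervals from the edgeR fit) for the 8 Irf genes in WT (grey) and STAT3KO (red) T cells. Filled points mark an adjusted p under 0.05, which are Irf8 in WT at 1.00 and Irf5 in STAT3KO at -0.60.

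The plot of CD8 against CD4 shows Irf8 as the member furthest from 0 in WT T cells. Since Irf8 and Irf5 are also genes of dendritic cells, B cells and macrophages, markers of these cells were read in the same libraries (CPM by column total). The summed level of 9 dendritic cell genes was 24.7 to 28.4 CPM in CD4 WT, 43.7 to 52.2 in CD4 STAT3KO, 247 to 278 in CD8 WT and 171 to 217 in CD8 STAT3KO libraries. Most of the CD8 sum was Itgax, an integrin that activated CD8+ T cells can express too, with 272 and 239 CPM in CD8 WT libraries. Ccr9, also in the sum, had 11.8 and 9.50 CPM in CD4 WT and 29.0 and 35.3 CPM in CD4 STAT3KO libraries. Siglech, Clec9a and Cd209a were at 0 in all 8 libraries, and Xcr1 did not exceed 0.0859 CPM. Zbtb46 was present in every library, with 0.663 to 1.78 CPM. The B cell sum over 10 genes was 97.6 to 108 CPM in CD4 WT, 150 to 174 in CD4 STAT3KO, 43.9 to 54.0 in CD8 WT and 38.8 to 58.2 in CD8 STAT3KO libraries. Cd22 took most of it, while Ms4a1 did not exceed 0.147 CPM in any library. Other genes of this sum were present: Cd79b had 11.9 to 12.8 CPM in CD8 and 0.892 to 2.46 CPM in CD4 libraries. Bank1 was detected in every library and was higher in replicate 2 than in replicate 1 of every group. The sum of 11 genes of macrophages and monocytes was 64.4 to 111 CPM in CD4 WT, 111 to 204 in CD4 STAT3KO, 157 to 254 in CD8 WT and 192 to 255 in CD8 STAT3KO libraries, with none of its genes at 0 in all libraries. Itgam was the most abundant of these 11 genes in every library, with 36.7 and 22.9 CPM in CD4 WT and 78.9 and 85.7 CPM in CD4 STAT3KO libraries. In CD8 T cells it had 113 and 96.1 CPM in WT and 134 and 125 CPM in STAT3KO libraries. C1qa had 1.59 and 13.7 CPM in CD4 WT and 3.05 and 17.4 CPM in CD4 STAT3KO libraries. Its CD8 levels were 1.03 and 22.9 CPM in WT and 2.32 and 16.4 CPM in STAT3KO libraries. The part of macrophage RNA in the levels of Irf5, Irf7 and Irf8 was not tested.

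Genes that act upstream of the IRFs, with them and downstream of them were then described by lists. Of 16 interferon genes, Ifng alone passed the filter on low counts. It had 374 and 235 CPM in CD4 WT, 411 and 270 CPM in CD4 STAT3KO, 656 and 490 CPM in CD8 WT and 520 and 381 CPM in CD8 STAT3KO libraries. The groups overlapped in both comparisons, and Ifng was not called (log2 fold change 0.16, edgeR adjusted p 0.780 in CD4; -0.35, adjusted p 0.590 in CD8), while the CD8 difference passed with the replicate block (-0.35, adjusted p 0.0211).

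Of 15 receptor and JAK-STAT genes tested, 1 rose and 2 fell (Ifnar2 and Socs1) in CD4 STAT3KO T cells, and 2 rose in CD8 T cells, among them Usp18. Over all genes, 6.54% were called higher and 5.08% lower in CD4, and 1.34% and 0.732% in CD8 T cells. Medians of the log2 fold changes of the list were 0.06 (CD4) and 0.09 (CD8). With the replicate block, 4 rose and 4 fell in CD4 T cells, and none of them was called there without CD4 WT replicate 2 or without either CD4 STAT3KO library. The CD8 calls were lost without any 1 of the CD8 or CD4 STAT3KO libraries, and with the 4 CD8 libraries alone. Ifnar2, a chain of the type I interferon receptor, had 64.0 and 81.6 CPM in CD4 WT and 39.8 and 38.6 CPM in CD4 STAT3KO libraries (log2 fold change -0.89 ± 0.16 SE, adjusted p 0.0133 in edgeR). Socs1, an inhibitor of JAK signaling, had 44.0 and 39.1 CPM in CD4 WT and 20.3 and 25.0 CPM in CD4 STAT3KO libraries (-0.87 ± 0.21 SE, adjusted p 0.0347). Usp18, an inhibitor at the type I receptor, had 2.68 and 3.79 CPM in CD8 WT and 8.44 and 8.53 CPM in CD8 STAT3KO libraries (1.39 ± 0.26 SE, adjusted p 0.0452), and its call was lost under 10 of 16 alternatives.

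Of 22 sensors, adaptors and kinases that activate IRF3, IRF5 and IRF7, 3 rose in CD4 STAT3KO T cells, all of them cytosolic nucleic acid sensors or their relatives: Dhx58 (log2 fold change 0.55, edgeR adjusted p 0.0226), Zbp1 (0.52, adjusted p 0.0317) and Ddx58 (0.51, adjusted p 0.0365). By edgeR, 0 were called in CD8 T cells, and 4 with the replicate block, 2 in each direction. Zbp1 came closest there (0.61, adjusted p 0.0505, and 0.00387 with the block). Over all genes, 6.54% were called higher and 5.08% lower in CD4, and 1.34% and 0.732% in CD8 T cells. Medians of the log2 fold changes of the list were 0.10 (CD4) and 0.07 (CD8). The CD4 count went to 5 higher and 3 lower with the replicate block, to 1 higher without CD4 WT replicate 1, and to 0 without CD4 WT replicate 2, without either CD4 STAT3KO library and with the 4 CD4 libraries alone.

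Of 22 partners and co-regulators of IRFs, 2 rose and 2 fell in CD4 STAT3KO T cells. Shares of 2 in 22 are close to the 6.54% of all genes called higher and the 5.08% called lower there. In CD8 T cells 0 were called (8 with the replicate block, 3 higher and 5 lower), against 1.34% and 0.732% of all genes. Ikzf3, the lymphoid zinc finger factor Aiolos, had 456 and 374 CPM in CD4 WT and 782 and 723 CPM in CD4 STAT3KO libraries (log2 fold change 0.86 ± 0.13 SE, adjusted p 0.00748 in edgeR). Trim21, a ubiquitin ligase for several IRFs, rose by 0.37 (adjusted p 0.0437), a call that was lost under 13 of 16 alternatives, the omission of any 1 library among them. Irf2bp2, a corepressor that binds IRF2, had 232 and 197 CPM in CD4 WT and 155 and 152 CPM in CD4 STAT3KO libraries (-0.48 ± 0.11 SE, adjusted p 0.0270), and Batf fell as given above. With the replicate block, 10 of these genes fell in CD4 T cells instead of 2, and without CD4 STAT3KO replicate 1 neither direction had a call. Without any 1 of the other CD4 libraries, 1 gene was higher and at most 1 lower.

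Targets of interferons and IRFs were called in 1 direction. Of 41 type I interferon targets tested, 15 rose and 0 fell in CD4 STAT3KO T cells, and 8 rose and 0 fell in CD8 T cells, against 6.54% and 1.34% of all genes called higher. Their median log2 fold changes were 0.46 and 0.56. With the replicate block, 27 and 26 rose, and 1 fell in CD8 T cells. Without 1 library the CD4 count lay between 3 (without CD4 STAT3KO replicate 2) and 16, and it was at most 9 without any library other than the CD8 WT ones. The CD8 count lay between 0 and 10, with at most 2 without any 1 of the CD8 libraries. Ifit1bl1, of the family of interferon-induced IFIT proteins, had 14.6 and 13.4 CPM in CD4 WT and 43.5 and 50.5 CPM in CD4 STAT3KO libraries, and 10.5 and 12.0 CPM in CD8 WT and 47.5 and 31.3 CPM in CD8 STAT3KO libraries. It rose in CD4 (log2 fold change 1.75, edgeR adjusted p 0.00269) and CD8 T cells (1.81, adjusted p 0.0140). Samd9l, an interferon-induced restriction factor, rose by 1.05 (edgeR adjusted p 0.00404) and 0.89 (adjusted p 0.0274) on the log2 scale.

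Of 34 targets of interferon gamma and IRF1, 18 rose and 0 fell in CD4 STAT3KO T cells, where 6.54% of all genes were called higher. In CD8 T cells 9 rose and 0 fell, where 1.34% of all genes were called higher. Medians of the log2 fold changes were 0.68 and 0.44. With the replicate block, 23 and 17 rose. Without 1 library the CD4 count lay between 7 (without CD4 STAT3KO replicate 2) and 16, with 11 without CD4 WT replicate 1. The CD8 count lay between 0 and 9, with at most 2 without any 1 of the CD8 or CD4 STAT3KO libraries. Irgm2, an immunity-related GTPase, had 52.1 and 45.6 CPM in CD4 WT and 87.2 and 101 CPM in CD4 STAT3KO libraries, and 30.3 and 32.9 CPM in CD8 WT and 57.2 and 59.0 CPM in CD8 STAT3KO libraries. It rose in both (log2 fold changes 0.95 and 0.88, edgeR adjusted p 0.00364 and 0.0217). Iigp1, of the same family, had 28.0 and 34.8 CPM in CD4 WT and 113 and 158 CPM in CD4 STAT3KO libraries (2.11 ± 0.54 SE, adjusted p 0.0452). This call was lost under 8 of 16 alternatives, among them the omission of any 1 CD4 library or either CD8 STAT3KO library (adjusted p up to 0.182). Interferon-stimulated genes were known to be higher in these STAT3KO libraries when the lists were written, so the counts are not independent evidence of their direction.

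The T cell genes that depend on IRF4 and BATF moved in both directions. Of 28 tested, 5 rose and 11 fell in CD4 STAT3KO T cells, and 0 rose and 5 fell in CD8 T cells, with medians of -0.22 and -0.32. The background for CD4 T cells was 6.54% of all genes rising and 5.08% falling, with an all-gene median of 0.02. For CD8 T cells it was 1.34% rising and 0.732% falling, with an all-gene median of -0.01. With the replicate block, 8 rose in CD4 T cells, and 3 rose and 12 fell in CD8 T cells. Without 1 library the CD4 counts lay between 2 and 5 higher and between 5 (without CD4 STAT3KO replicate 1) and 11 lower, with 2 higher without CD4 WT replicate 2 or either CD4 STAT3KO library. The CD8 count lay between 0 and 4 lower, with at most 1 without any 1 of the CD8 libraries and 2 without either CD4 STAT3KO library. Bcl6, the factor of follicular helper cells, had 114 and 90.3 CPM in CD4 WT and 21.06 and 22.99 CPM in CD4 STAT3KO libraries (log2 fold change -2.21, edgeR adjusted p 0.00217). Eomes, a T-box factor of effector and memory cells, had 3.74 and 2.27 CPM in CD4 WT and 13.51 and 11.01 CPM in CD4 STAT3KO libraries (2.03, adjusted p 0.00551). Entpd1, the ectoenzyme CD39, rose by 1.63 in CD4 T cells (adjusted p 0.00347). Gzmb, the cytotoxic protease granzyme B, had 3384 and 2914 CPM in CD8 WT and 1557 and 1355 CPM in CD8 STAT3KO libraries (-1.11, adjusted p 0.0119). It was called lower in CD4 T cells too, with 533 and 469 CPM in WT and 331 and 308 CPM in STAT3KO libraries (-0.65, edgeR adjusted p 0.0142). The Gzmb calls were lost under 4 (CD8) and 2 (CD4) of 16 alternatives. The difference of the Gzmb effect between the cell types was not called (edgeR adjusted p 0.525). Bcl6 is also known as a target of STAT3 itself.

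**Figure D5:**
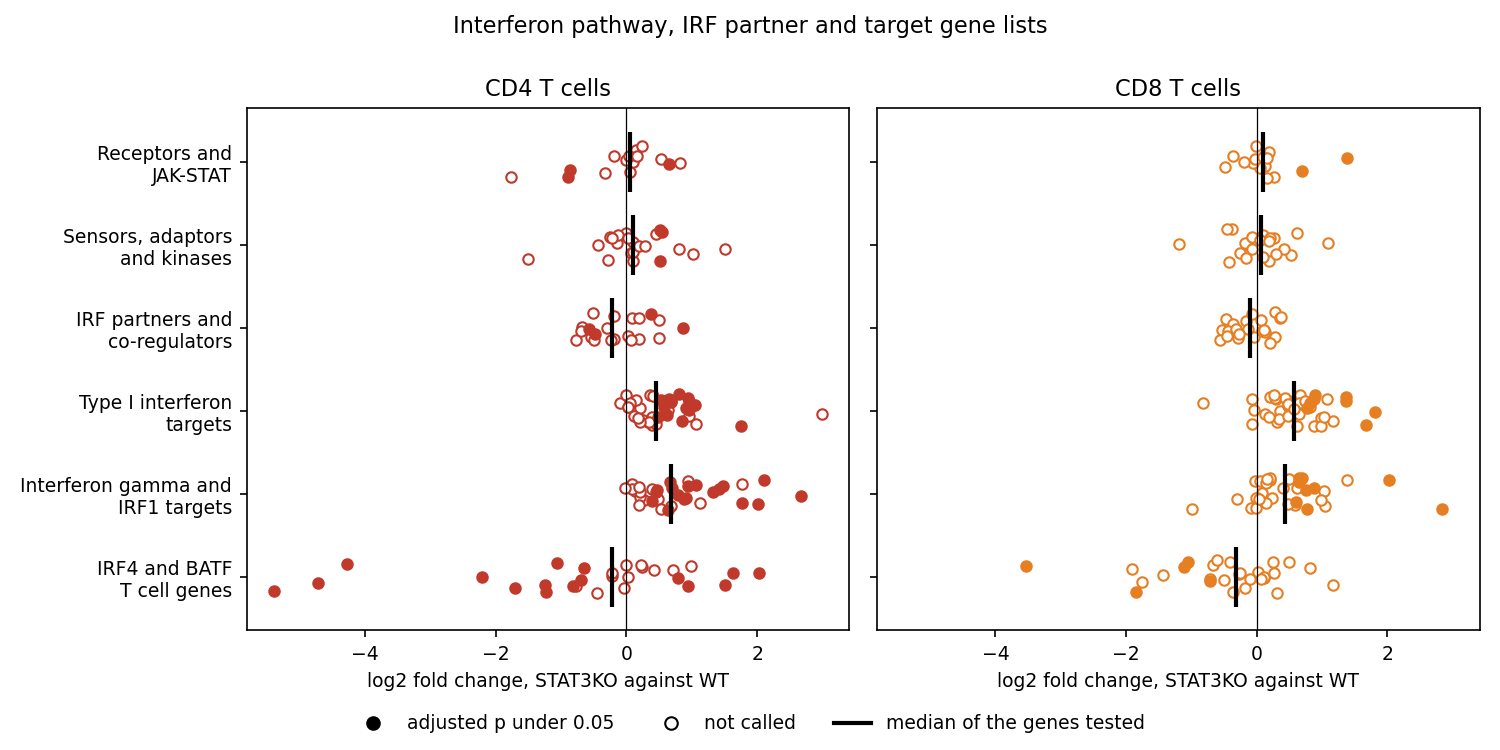
Log2 fold changes of STAT3KO against WT (horizontal axes) for each tested gene of 6 lists in CD4 (left) and CD8 (right) T cells, with filled points for an adjusted p under 0.05, open points for genes not called and a bar at the median of each list. The called points of both interferon target lists lie to the right of 0, whereas the IRF4 and BATF list has called points on both sides in CD4 T cells.

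The plot of the lists sets the members beside their targets: the median log2 fold change of the 8 Irf genes was 0.34 (CD4) and 0.21 (CD8), beside 0.46 and 0.56 for type I interferon targets and 0.68 and 0.44 for targets of interferon gamma and IRF1. The same target lists differed between cell types within a genotype. In WT T cells, 21 of 41 type I interferon targets were lower and 1 was higher in CD8 than in CD4, and 12 of 34 interferon gamma and IRF1 targets were lower and 1 higher, where 11.6% of all genes were lower and 12.2% higher. In STAT3KO T cells, 20 and 19 of them were lower and 1 and 0 higher, against 6.67% and 5.84% of all genes. In these comparisons Irf9 and Irf7 lay lower in CD8 without overlap in both genotypes, and Irf1 overlapped.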

How the data were processed

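Single-end reads were mapped by the authors to mm10 with STAR and assigned to RefSeq genes with HTSeq. They deposited raw counts and RPKM values (reads per exon length and library size). Growth and treatment fields of the labels describe another cell system and were not used. Methods and labels name different library kits.

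From the counts, filterByExpr (minimum count 10) kept 12428 genes, which held 99.96% to 99.97% of the counts. All 8 libraries entered 1 fit with a mean per group (edgeR 4.0.16, R 4.3.3, TMM). A gene was called at an adjusted p under 0.05 (quasi-likelihood test, two-sided, Benjamini-Hochberg over all genes). SE and 95% intervals come from this fit. Alternatives used DESeq2 1.42.0, limma 3.58.1, other scalings and filters, and left out libraries. The procedure was tested on simulated data. A count of 0 allows at most 3 counts (0.129 to 0.149 CPM, counting error only).

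The labels number the replicates without saying what a number marks. Deviations of libraries with the same number from their group means were correlated across genes in all 6 pairs of groups (Pearson r 0.424 to 0.671), so a fit with the number as a block is given beside results it changes.

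Named genes were the members, Stat3, Cd4, Stat2, Batf, Ifng, up to 2 of the highest and 2 of the lowest called genes per list and comparison (mean log2 CPM of at least 3, no overlap), and the 3 genes most like a called member. Some genes that the rule names are not reported here. Ddx58, C1qa, Tnpo3 and the markers were named after their values were seen. Members and lists were chosen with earlier results of these data known. Coordinates are those of the deposited tables, and genes were looked up in GENCODE M21. It places exons of another gene over exon bases of Irf1 (3.4%), Irf3 (2.56%), Irf5 (14.1%), Irf7 (1.19%) and Irf9 (2.28%). These shares do not bound the uncertainty of the counts, which also depends on the level of the other gene.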

Additional observations from a re-analysis of the deposited data

How the results depend on the processing

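With 2 pools per group, leaving out 1 library lets the lone one vary like the other groups by assumption. In CD4 T cells, the count of Irf genes called lay between 0 and 2 without 1 library and that of all genes between 412 and 1320, against 4 and 3747 with the replicate block. In CD8 T cells, DESeq2 called 1 Irf gene and 885 genes, the fit with no filter 454 genes, the replicate block 3 and 2258, and the 4 CD8 libraries alone 37 genes, while without 1 library the count of all genes lay between 7 and 241. For the difference of the effects, DESeq2 called 188 genes, no filter 44, the replicate block 403 and limma on log2(RPKM + 1) 13, with 0 Irf genes in each. For CD8 against CD4 in WT, the replicate block called 4 Irf genes and 5232 genes, the 4 WT libraries alone 1919 genes, and the counts without 1 library lay between 1 and 2 and between 1575 and 2573. In STAT3KO, DESeq2, total counts and the 4 STAT3KO libraries alone called 2 Irf genes each, the replicate block 3 and 3689 genes, and the counts without 1 library lay between 0 and 2 and between 457 and 1605. The replicate block changed no other call of an Irf gene than those given in the report.

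Signs turned where values were near 0. With total counts the log2 fold change was -0.0021 for Ifnar2 in CD8 T cells, -0.00014 for Irf7 in the difference of the effects and -0.00028 for Irf2 between CD8 and CD4 in STAT3KO, and with the 4 WT libraries alone it was 0.0031 for Irf1 between CD8 and CD4. Without 1 library, the log2 fold changes in CD4 T cells ranged from -0.085 to 0.33 for Irf3, from -0.034 to 0.57 for Irf8 and from -0.18 to 0.54 for Ifng. In CD8 T cells they ranged from -0.14 to 0.52 for Irf1, from -0.017 to 0.41 for Irf3, from -0.075 to 0.36 for Irf4 and from -0.13 to 0.24 for Ifnar2. The difference of the effects ranged from -0.63 to 0.33 for Irf2, from -0.15 to 0.30 for Irf3, from -0.41 to 0.089 for Irf4, from -0.23 to 0.22 for Irf7 and from -0.24 to 0.023 for Irf9. Between CD8 and CD4 in WT the ranges were -0.13 to 0.099 for Irf1, -0.32 to 0.63 for Irf2 and -0.28 to 0.21 for Irf4, and in STAT3KO they were -0.17 to 0.21 for Irf2 and -0.43 to 0.0041 for Irf4. The cause of these changes was not tested, beyond the smaller number of libraries. RLE size factors and total counts shifted the all-gene median by at most 0.042 on the log2 scale.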

Other observations

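Replicates of one group differed for some Irf genes in the same way in all 4 groups. From the library numbered 1 to that numbered 2, Irf2 differed by -0.92 in CD4 WT, -0.38 in CD4 STAT3KO, -0.75 in CD8 WT and -0.24 in CD8 STAT3KO T cells on the log2 CPM scale. Irf3 differed by -0.42, -0.16, -0.41 and -0.38 in the same order of groups. Irf1 differed by 0.63 and 0.66 in CD4 STAT3KO and CD8 STAT3KO and by -0.21 and 0.23 in CD4 WT and CD8 WT, so the STAT3KO libraries with the same number stood together. Irf4 was lower in the WT libraries numbered 2 (-0.50 in CD4 and -0.32 in CD8) and higher in the STAT3KO libraries numbered 2 (0.07 and 0.44). What the numbers mark is not given in the labels, and no cause of these differences was tested.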
